A study of Mus musculus with 4 samples.

Results

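The immediate early response genes are 10 genes chosen by name: the transcription factor genes Fos, Fosb, Jun, Junb, Atf3, Egr1 and Nr4a1, the early response genes Ier2 and Ier3, and Zfp36, whose product destabilizes mRNAs. They were found on the array as the non-control probes that the scanner files assign to these gene names. All 10 genes were present, with 13 probes and 31 spots on each array, out of 41174 probes, and all 10 were among the 15538 genes tested. Every probe was well above background in all 8 channels measured, so none entered the test through 1 tissue only.

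Crypts of the small intestine, the pockets between the villi where stem cells divide, were split for each of 2 mice: RNA came either straight from the fresh crypts or, after 1 week in culture, from the organoids they formed. Organoids are hollow epithelial structures, here grown in Matrigel under medium with EGF, R-spondin and Noggin. Per the labels' protocols, pieces of gut stood 30 min in 2 mM EDTA on ice, crypts were freed with a pipette, passed through a 70 µm strainer and spun away from single cells. Strain, sex, age and genotype of the mice, and the handling of organoids before lysis, are not given here. Culture and medium differ between the groups, handling before lysis may differ, and their effects cannot be told apart. Both RNAs of a mouse shared an array, each in its own dye (Cy3 or Cy5), and a second array had the dyes exchanged, for 4 arrays in all. Arrays of 1 mouse measure the same RNAs, so that n = 2 mice throughout. The p-values combine the spread between these animals with a spread that limma estimates from all genes. Each group is the RNA of many cells, in which fewer cells of a type and less RNA per cell cannot be told apart.

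Immediate early genes are transcribed within minutes of a stimulus without new protein synthesis, through factors that already wait in the cell, such as the serum response factor with its ETS partners and CREB. Growth factors, stretch, stress and tissue handling are all known to induce them, and their mRNAs are short-lived, in part because proteins such as that of Zfp36 bind AU-rich elements and hasten decay. Fos and Jun family proteins pair to form AP-1, the dimer that acts on growth and stress genes. In the gut, AP-1 members are known for responses of the epithelium to growth factors and injury.

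The promoters of Fos, Jun, Nr4a1 and Zfp36 are shown because these 4 genes moved in opposite directions between the tissues, as described further on. They also differ in the sites found within the stretch printed here. The table of promoters from RefSeq (GRCm38.p6) held 8 of the 10 genes, and Egr1 and Ier2 are named only. The 250 bases before the annotated start are printed 5′ to 3′ on the gene's strand, with capitals at each match to a searched motif. The stretches lie at chr12:85473640-85473889 (Fos, plus strand), chr4:95052223-95052472 (Jun, minus strand), chr15:101266596-101266845 (Nr4a1, plus strand) and chr7:28379229-28379478 (Zfp36, minus strand).
Fos: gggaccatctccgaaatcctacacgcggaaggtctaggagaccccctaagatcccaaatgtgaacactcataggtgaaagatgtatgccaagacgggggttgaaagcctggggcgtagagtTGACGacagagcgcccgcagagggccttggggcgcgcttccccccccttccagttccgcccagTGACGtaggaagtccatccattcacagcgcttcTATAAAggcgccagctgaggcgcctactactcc
Jun: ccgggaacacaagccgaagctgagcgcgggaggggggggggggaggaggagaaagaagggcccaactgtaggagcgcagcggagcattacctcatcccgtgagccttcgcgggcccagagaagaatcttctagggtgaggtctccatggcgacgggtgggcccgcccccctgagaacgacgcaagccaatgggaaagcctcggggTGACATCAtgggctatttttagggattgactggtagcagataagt
Nr4a1: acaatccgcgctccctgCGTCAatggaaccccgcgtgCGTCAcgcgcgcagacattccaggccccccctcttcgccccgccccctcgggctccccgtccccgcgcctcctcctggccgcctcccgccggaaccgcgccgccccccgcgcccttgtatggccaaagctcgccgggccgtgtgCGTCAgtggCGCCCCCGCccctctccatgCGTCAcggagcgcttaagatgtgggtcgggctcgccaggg
Zfp36: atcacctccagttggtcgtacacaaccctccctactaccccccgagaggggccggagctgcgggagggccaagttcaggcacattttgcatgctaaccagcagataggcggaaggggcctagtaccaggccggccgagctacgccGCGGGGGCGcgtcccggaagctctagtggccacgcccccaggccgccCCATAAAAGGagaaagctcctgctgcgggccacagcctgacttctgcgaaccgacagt

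Both strands of these 250 bases were searched for 7 motifs. Bases farther upstream were not searched, so a motif not found here may still lie there. The cyclic AMP element core TGACG was found in 5 of the 8 promoters, 4 times in Nr4a1, 2 times in Fos and 1 time each in Fosb, Junb and Atf3, against 17.8% of all 32851 promoter entries. The full element TGACGTCA, of which that core is a part, was in none of the 8 and in 1.55% of all. The related form TGACATCA, at which ATF and Jun proteins are known to bind the Jun promoter, was in Jun alone of the 8 (2.93% of all). A CArG box, the serum response factor site, was in Zfp36 alone (1.47% of all). The EGR motif GCGNGGGCG was in Fosb, Nr4a1 and Zfp36 (4.70% of all), the AP-1 motif TGANTCA in none (6.75% of all), and the TATA letters TATAAA in Fos alone (12.4% of all). Junb and Atf3 matched no motif but TGACG, and Ier3 matched none. TGACG was in both Nr4a1, which rose, and Fos, which fell, and the EGR motif was in both Nr4a1 and Zfp36, which fell. The 8 promoters were 54.4% to 74.4% G and C, against a median of 52.4% over all entries, and the part of base composition in these shares was not tested.

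The genes did not move together. In organoids relative to crypts, Nr4a1, Ier3 and Jun rose, Fos and Zfp36 fell, and Fosb, Junb, Atf3, Egr1 and Ier2 did not pass the test. Mouse means were tested against 0 with limma, adjusting by Benjamini-Hochberg over all 15538 genes, and genes with an adjusted p under 0.05 were called. Of all genes tested, 10.9% passed, 5.43% higher and 5.49% lower in organoids. Without adjustment, 9 of the 10 genes (all but Egr1) had p under 0.05 in limma, compared with 27.6% of all genes. The median log2 ratio of the 10 was -0.12 (-0.18 in mouse 1 and 0.03 in mouse 2), against 0.02 over all genes, and the genes spanned from -2.54 to 1.75. The direction was the same on all 4 arrays for 9 of the 10 genes, against 47.1% of all genes tested.

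**Figure D1:**
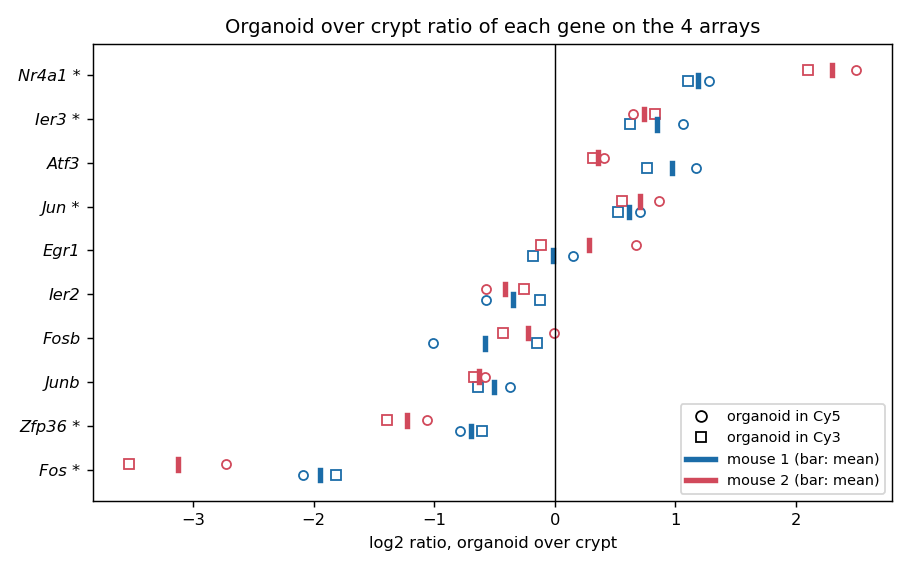
Log2 ratio of organoid over crypt (x axis) for each of the 10 genes (y axis, ordered by mean), with 1 point per array, circles with the organoid in Cy5, squares with it in Cy3, and a bar at the mean of each mouse; a star marks genes past the test. Fos lies lowest at -2.54 and Nr4a1 highest at 1.75, and Egr1 alone has arrays on both sides of 0.

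Fos encodes the founding member of the Fos family, which can bind DNA as a dimer with a Jun protein. Its probe (NM_010234, chromosome 12, 86817900 to 86817959 in mm9) is printed 10 times on each array. In Cy5, its mean spot signal in mouse 1 was 4999 with crypt RNA and 930 with organoid RNA, over local backgrounds of 143 to 145, and in mouse 2 it was 5942 and 637. In Cy3, the crypt and organoid signals were 1816 and 438 in mouse 1, and 2670 and 253 in mouse 2, over backgrounds of 61.2 to 64.2. In either dye and in both mice the crypt signal was the higher. The log2 ratios of organoid over crypt were -2.08 and -1.81 on the arrays of mouse 1 and -2.72 and -3.53 on those of mouse 2. Fos thus fell 3.86-fold in mouse 1 and 8.73-fold in mouse 2, with a mean log2 ratio of -2.54 ± 0.83 (SD, n = 2 mice, limma adjusted p = 0.00938). It ranked 58 from the lowest of all 15538 genes. The spots of an array scattered by an SD of 0.05 at most, whereas the arrays of a mouse lay 0.27 and 0.80 apart and the mice 1.18 apart. The size of the fall therefore differed between the animals by more than between repeats of the same RNA, and its direction did not. With median centring its adjusted p was 0.0530 (log2 ratio -2.33), and with no filter on dim probes 0.0724.

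Fosb, a close relative of Fos that is induced by the same kinds of stimulus, had log2 ratios of -1.01 and -0.14 in mouse 1 and -0.01 and -0.43 in mouse 2. The arrays of mouse 1 alone lay 0.86 apart, more than the 0.36 between the mice. Its mean was -0.40 ± 0.25 (limma adjusted p = 0.168; probe on chromosome 7, 19888477 to 19888536), so no difference was detectable with these arrays. The log2 ratio of Fos minus that of Fosb was -1.37 in mouse 1 and -2.91 in mouse 2. With 2 mice no exact test of such a difference can give a p below 0.5, and none was made.

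Jun encodes the main partner of Fos in AP-1 and can also pair with itself. Its probe (NM_010591, chromosome 4, 94715864 to 94715923) is also printed 10 times. In Cy5, the mean signal in mouse 1 was 3335 with crypt RNA and 4231 with organoid RNA, and in mouse 2 it was 2372 and 3094. In Cy3, the same pairs were 1310 and 2061 in mouse 1, and 1263 and 1340 in mouse 2. Log2 ratios were 0.71 and 0.52 in mouse 1 and 0.87 and 0.56 in mouse 2, with a spot SD of 0.02 to 0.04 within an array. Jun rose by 0.66 ± 0.07, or 1.59-fold (limma adjusted p = 0.0373), and the mice lay 0.09 apart, closer than the arrays of either mouse. The call was lost with the scanner's own ratios (adjusted p = 0.0788), the deposited matrix (0.0808), median centring (0.305), no dim-probe filter (0.0624) and the organoid in Cy3 alone (0.0820). The log2 ratio of Fos minus that of Jun was -2.57 in mouse 1 and -3.84 in mouse 2.

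Junb, a Jun family gene whose product often acts more weakly than that of Jun, has 2 probes. At the brighter (chromosome 8, 87500881 to 87500940) the log2 ratios were -0.37 and -0.64 in mouse 1 and -0.58 and -0.67 in mouse 2. At the other, whose target overlaps the first (87500843 to 87500902), they were -0.16 and -0.71, and -0.14 and -0.60. All 8 values were below 0. The mean of the brighter probe was -0.56 ± 0.09 (limma adjusted p = 0.0587) and did not pass the test. It passed with no background subtraction (adjusted p = 0.0470), with the mouse as a random replicate block over the 4 arrays (0.0118) and with the 4 arrays and no block (0.0121). The ratio of Jun exceeded that of Junb by 1.12 in mouse 1 and 1.34 in mouse 2.

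Atf3, a stress-induced gene of the ATF family whose product pairs with Jun proteins, had log2 ratios of 1.18 and 0.77 in mouse 1 and 0.41 and 0.32 in mouse 2 (chromosome 1, 192994547 to 192994606). All 4 were above 0, and the mice were 0.61 apart, against 0.41 and 0.09 between the arrays of a mouse. The mean was 0.67 ± 0.43 (limma adjusted p = 0.0883), close to that of Jun (0.66) but with a larger SD (0.43 against 0.07), and it did not pass the test. It passed with the mouse as a random replicate block (adjusted p = 0.0292) and with no block (0.0402).

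Egr1 encodes a zinc finger factor that serum and growth factors induce. Its log2 ratios were 0.15 and -0.18 in mouse 1 and 0.68 and -0.11 in mouse 2. Both arrays with the organoid in Cy5 were above 0 and both with it in Cy3 below, so that its sign followed the dye and not the mouse. The mean was 0.13 ± 0.21 (limma adjusted p = 0.623), with no detectable difference between the tissues. Of its 2 mouse means, 1 was below 0.

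Nr4a1 encodes an orphan nuclear receptor that is an early response gene in many cell types. Its probe lies at chromosome 15, 101105071 to 101105130 (NM_010444). In Cy5, the signal with crypt RNA was 1253 in mouse 1 and 587 in mouse 2, and with organoid RNA it was 2689 and 1959. In Cy3, crypt signals were 598 and 307, and organoid signals 1438 and 911. Within a mouse the organoid signal was the higher in either dye. Log2 ratios were 1.28 and 1.10 in mouse 1 and 2.50 and 2.10 in mouse 2. Nr4a1 rose 2.28-fold in mouse 1 and 4.93-fold in mouse 2, with a mean of 1.75 ± 0.79 (limma adjusted p = 0.0218), and stood at rank 95 from the highest of all genes. The call was lost with no dim-probe filter (adjusted p = 0.109).

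Among the other early response genes, Ier3, whose product is known to act on cell survival, had log2 ratios of 1.07 and 0.63 in mouse 1 and 0.65 and 0.83 in mouse 2. It rose by 0.80 ± 0.08, or 1.74-fold (limma adjusted p = 0.0232; chromosome 17, 35959528 to 35959587). The mice lay 0.11 apart, less than the 0.44 and 0.18 between arrays of a mouse. The call was lost with median centring (adjusted p = 0.256), no dim-probe filter (0.0512) and the organoid in Cy3 alone (0.0511).

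Ier2 has 2 probes, and they differed in size. The brighter (NM_010499, chromosome 8, 87185211 to 87185245) gave -0.57 and -0.12 in mouse 1 and -0.57 and -0.25 in mouse 2, with a mean of -0.38 ± 0.05 (limma adjusted p = 0.135). The other (AK032692, 87183623 to 87183681, on the same strand) gave -1.38 and -0.72 in mouse 1 and -2.16 and -2.09 in mouse 2, with a mean of -1.59 ± 0.76. Tested among all 21923 probes, the second passed (limma adjusted p = 0.0276) and the first did not (0.145). All 8 values were below 0. With the mean over probes the gene stood at -0.98 (adjusted p = 0.0313), so whether Ier2 passed depended on the probe. The brighter probe passed in the fit of 4 arrays with no block (limma adjusted p = 0.0305). Which transcript the second probe reads was not analysed here.

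Zfp36 encodes tristetraprolin, which binds AU-rich elements in short-lived mRNAs and speeds their decay. At the brighter probe (chromosome 7, 29162132 to 29162191) the log2 ratios were -0.79 and -0.60 in mouse 1 and -1.06 and -1.39 in mouse 2. The gene fell by 0.96 ± 0.38 on the log2 scale (limma adjusted p = 0.0308), which was 1.62-fold in mouse 1 and 2.34-fold in mouse 2. The second probe (29161940 to 29161999) gave -0.42, -0.09, -0.45 and -0.68, a mean of -0.41 ± 0.22 (adjusted p over all probes 0.157). The direction was the same at both probes and the size was not. The call of Zfp36 was lost with the mean over probes (-0.68, adjusted p = 0.0578), median centring (0.540), no dim-probe filter (0.102) and the organoid in Cy3 alone (0.0822).

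**Figure D2:**
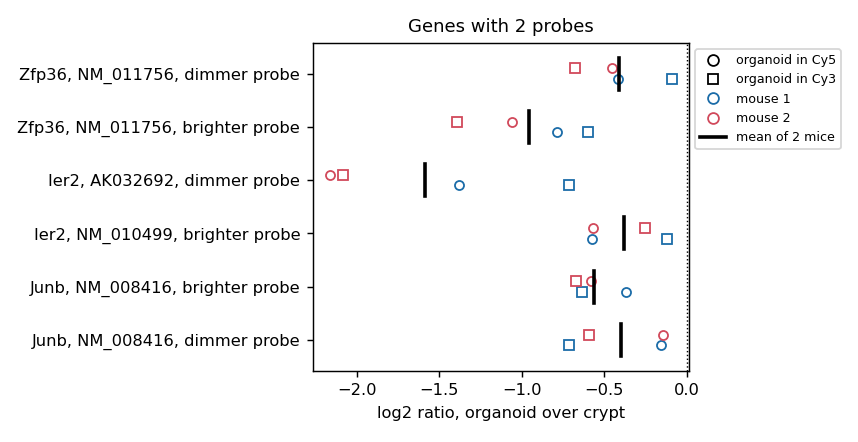
Log2 ratio of organoid over crypt (x axis) for the genes with 2 probes (y axis), 1 point per array, coloured by mouse, with a bar at the mean of both mice. All points lie below 0, and the dimmer Ier2 probe, at -1.59, lies farther from 0 than the brighter, at -0.38.

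Normalized signals show in which tissue the mice differed. For Fos the log2 signal in crypts was 11.30 in mouse 1 and 11.89 in mouse 2, and in organoids 9.36 and 8.76, so that the mice differed about equally in both tissues and in opposite directions. Nr4a1 stood at 9.71 and 8.48 in crypts and at 10.90 and 10.78 in organoids. Its organoid signals lay 0.13 apart, near the median gap between mice over all genes (0.17 in organoids), whereas its crypt signals lay 1.24 apart, against a median of 0.13 in crypts. Atf3 showed the reverse, with crypts at 9.08 and 8.95 and organoids at 10.06 and 9.32. Zfp36 was at 10.89 and 11.15 in crypts and, array by array, at 10.23, 10.16, 10.03 and 9.82 in organoids. Organoid and crypt signals of the 2 mice did not overlap for 9 of the 10 genes, Egr1 being the exception, and for 57.3% of all genes tested.

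**Figure D3:**
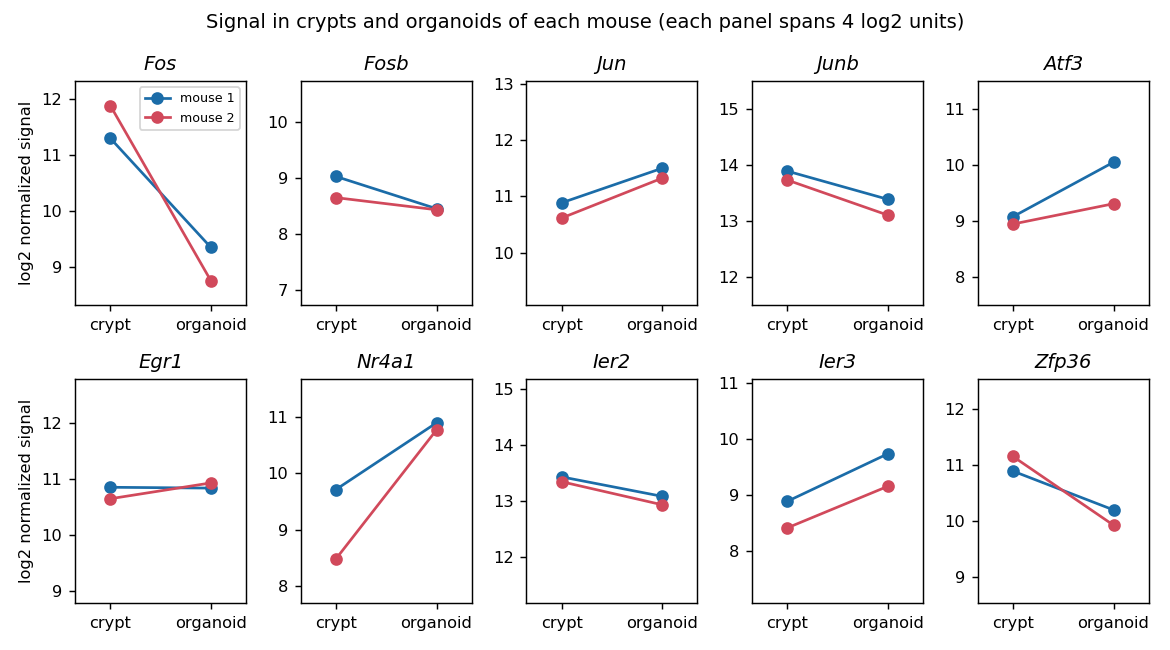
Log2 normalized signal (y axis, each panel spanning 4 log2 units around its own midpoint) in crypts and organoids (x axis), 1 line per mouse joining the means of 2 arrays. The lines of Nr4a1 start 1.24 apart in crypts and end 0.13 apart in organoids, those of Fos cross, and levels of different panels are not comparable because probes differ in brightness.

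The other genes of the response were taken from lists written by function. Of 12 further genes whose proteins can pair in AP-1 dimers, 9 were tested, 1 rose, 1 fell and 7 did not pass, with a median of 0.31. The gene that fell was well above background in all channels of crypts but not of organoids, and with all 8 channels required 1 rose and 0 fell. These counts leave out Batf2, a relative of Batf that was not on the list. It was well above background in all 8 channels and fell, at -2.57 (limma adjusted p = 0.00558). Maff, a small Maf factor, rose by 1.44 ± 0.02 (limma adjusted p = 0.00515), with 1.43 in mouse 1 and 1.46 in mouse 2. Of the remaining Fos and Jun relatives, Fosl2 was at 0.48 ± 0.16 (adjusted p = 0.0921) and Jund at 0.53 ± 0.07 (adjusted p = 0.0653). Fosl1, Batf and Batf3 did not reach the detection filter.

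Of 19 other early transcription factors and cofactors, 15 were tested, 1 rose, 2 fell and 12 did not pass (median 0.33). Myc, a growth regulator, rose by 0.78 ± 0.00 (limma adjusted p = 0.0232). Klf4, a zinc finger factor of differentiated epithelium, fell by 1.28 ± 0.29 (adjusted p = 0.0115), and Id2, an inhibitor of helix-loop-helix factors, by 1.11 ± 0.22 (adjusted p = 0.0135). The closest relatives of Egr1 and Nr4a1 that could be tested did not pass: Egr2 was at 0.55 ± 0.39 and Nr4a2 at 0.32 ± 0.22. Egr3, Egr4 and Nr4a3 did not reach the filter. The ratio of Nr4a1 exceeded that of Nr4a2 by 0.72 in mouse 1 and 2.14 in mouse 2.

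Of 27 early response effectors, 25 were matched by name, 22 were tested, 5 rose, 4 fell and 13 did not pass (median -0.04). Of those that rose, Ccn2, a matrix-associated protein gene, was well above background in only 2 of 4 crypt channels, and with all 8 channels required 4 rose and 4 fell. Areg, a ligand of the EGF receptor, rose by 2.11 ± 0.23 (limma adjusted p = 0.00330), and Plaur, the urokinase receptor gene, by 1.37 ± 0.21 (adjusted p = 0.00779). The lowest was Sgk1, a kinase gene induced by serum and glucocorticoids, at -1.85 ± 1.00 (adjusted p = 0.0312; -1.14 and -2.56 in the mice), followed by Gadd45g, a growth arrest gene, at -1.12 ± 0.26 (adjusted p = 0.0147). Dusp1, an early phosphatase gene often induced along with Fos, was at 0.20 ± 0.47, with 0.54 in mouse 1 and -0.13 in mouse 2.

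None of 23 tested genes of the upstream kinases and factors passed limma's test in either direction, and 4 had an unadjusted p under 0.05 (median -0.02, range -0.63 to 0.36). Srf, the serum response factor gene, was at 0.30 ± 0.16 and Egfr at 0.21 ± 0.10. By other fits of the same data, 3 passed with the 4 arrays and no block, and 1 with the mouse as a random replicate block. Of 7 tested genes of proteins that bind AU-rich elements, 1 rose and none fell (median 0.03). That gene was Zfp36l1, the relative of Zfp36 with the same kind of zinc finger, which rose by 1.55 ± 0.11 (limma adjusted p = 0.00481). Zfp36l2, the other relative tested, was at -0.19 ± 0.23. The log2 ratio of Zfp36 minus that of Zfp36l1 was -2.32 in mouse 1 and -2.70 in mouse 2.

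**Figure D4:**
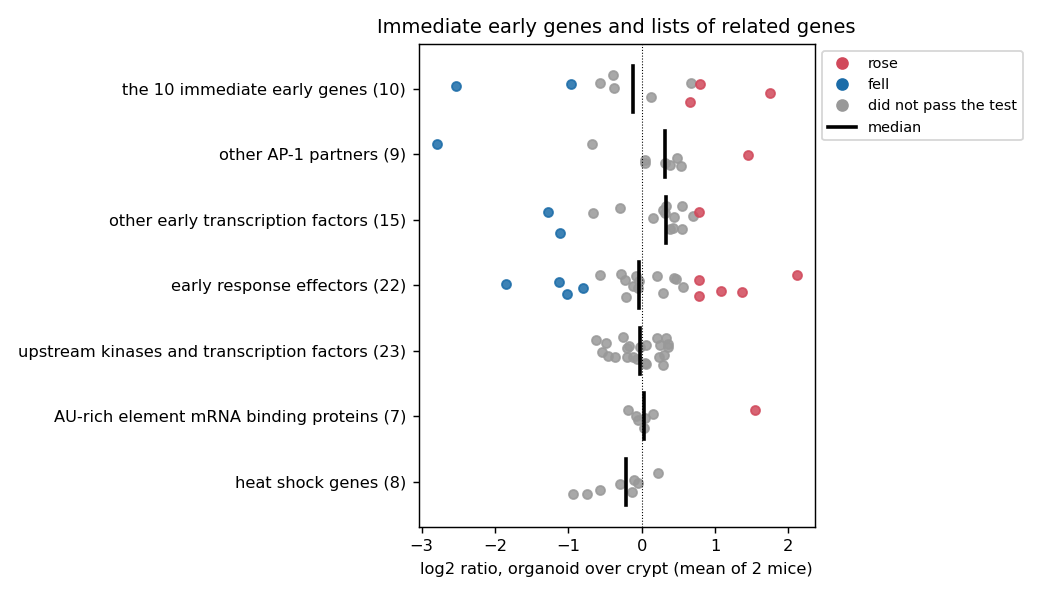
Log2 ratio of organoid over crypt (x axis, mean of 2 mice) of each tested gene in the immediate early list and in 6 lists of related genes (y axis, number tested in parentheses), coloured by the call, with a bar at each median. Calls lie on both sides of 0 among the immediate early genes and the effectors, and no upstream gene was called.

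Markers of other cells moved as well, and their part in the results above was not tested. Of 8 genes of villus enterocytes, all detected in both tissues, 7 fell and none rose (median -2.25). The log2 of their summed signal was 18.96 to 19.29 in crypts and 17.11 to 17.79 in organoids. Of 9 white blood cell markers tested, 2 fell (Lyz2 at -2.32 ± 0.18, which other cells of the gut may also express, and Cd3g, which entered the test through crypts only) and none rose. The log2 of the summed signal of the 9 was 15.78 to 16.23 in crypts and 13.45 to 14.12 in organoids. Most of it was Lyz2, at 15.96 and 15.99 in crypts and 13.51 and 13.80 in organoids of the 2 mice. Cd3g and Itgam were not well above background in any organoid channel. Of 8 stromal, muscle and vessel markers, 3 could be tested and 1 fell. The log2 of the summed signal of the 8 was 13.12 to 13.53 in crypts and 12.72 to 12.95 in organoids. The sum was mostly that of the smooth muscle actin gene Acta2, which fell by 0.66 ± 0.01, whereas Vim was at 0.21 ± 0.34 and Col1a2 at -0.00 ± 0.05. Pdgfra, Pecam1 and Des stayed short of that mark in both tissues. Of 3 red blood cell genes 1 could be tested, Hba-a1 at -0.02 ± 0.07. As to the labelled tissue, all 5 epithelial markers were well above background in all channels of both tissues, as were all 6 markers of crypt base stem and Paneth cells. Not all of them kept their level. Of the epithelial genes, Vil1 (-1.56 ± 0.13) and Krt8 (-0.90 ± 0.15) fell and Krt18 rose (1.26 ± 0.36), with a median of -0.59. Of the crypt base genes, the stem cell marker Lgr5 rose (2.29 ± 0.05), and the Paneth cell genes Lyz1 (-2.92 ± 0.11), Mmp7 (-1.65 ± 0.21) and Ang4 (-2.54 ± 1.05) fell. The stem cell markers Olfm4 (-0.09 ± 0.21) and Ascl2 (-0.22 ± 0.12) did not pass the test.

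The genes most like Fos were sought by the distance between centred log2 signals over the 8 channels, among 14374 genes well above background in all of them. The nearest were Slc51b, a bile acid transporter subunit gene (distance 0.46), Batf2, a transcription factor gene of the AP-1 kind (0.50), and the mucin gene Muc3 (0.63), against a median distance of 3.77. Their log2 ratios in mouse 1 and mouse 2 were -2.08 and -2.96 for Slc51b, -2.12 and -3.02 for Batf2, and -2.11 and -2.93 for Muc3, each near the -1.95 and -3.13 of Fos. Among the nearest to Egr1 were Ebag9 and Rtn3, neither of which passed the test. The genes were chosen by the same signals that give the ratios, so ratios near those of Fos or Egr1 follow from the choice. The median distance over all genes was 0.73 from Egr1 and 3.77 from Fos, so it depends on the reference gene. The 8 channels hold only 4 RNAs, and the likeness is a description.

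**Figure D5:**
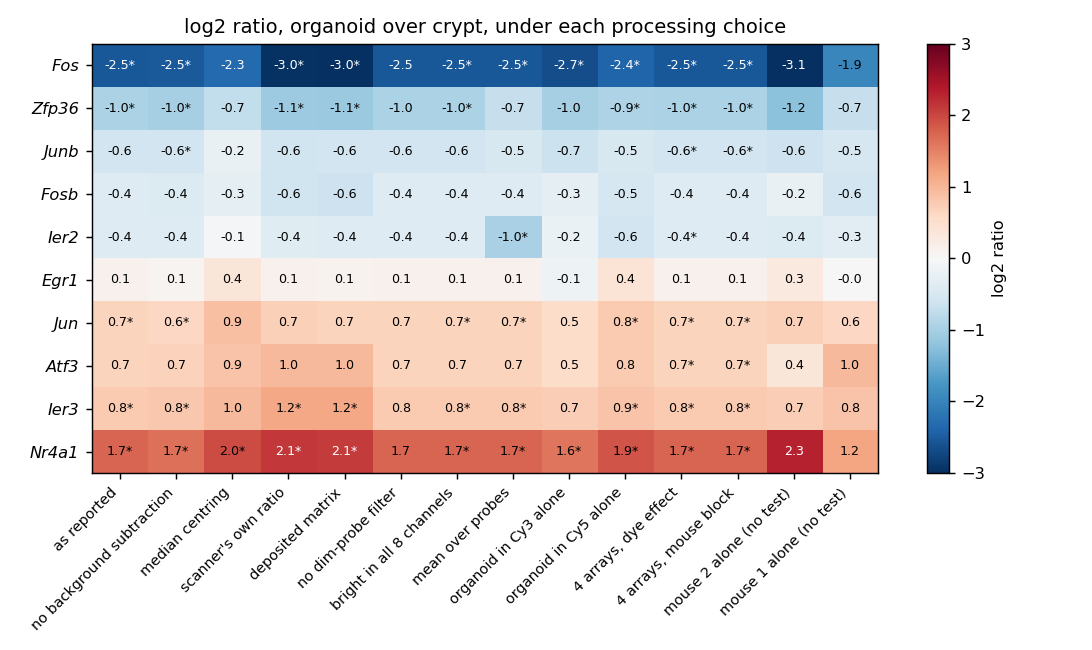
Log2 ratio of organoid over crypt of each gene (rows) under each processing choice (columns), with the value in the cell, its colour on a scale from -3 to 3 and a star where the adjusted p was under 0.05; the last columns show 1 mouse alone, without a test. Egr1 alone changes sign, at -0.15 with the organoid in Cy3 alone and -0.01 in mouse 1 alone, and every star of Fos, Nr4a1, Ier3, Jun and Zfp36 is absent with no dim-probe filter.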

How the data were processed

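Crypt and organoid RNA of 2 mice were measured on 4 two-colour Agilent whole mouse genome arrays. Spots were quantified by Agilent Feature Extraction, version 10.2.1.3 per the file headers and 9.5.3 per the submitters' processing notes. The deposited intensity columns used here, linear in scale, were each spot's mean signal and its median background, and the deposited log10 ratios are the scanner's own, dye-normalized per the file headers. The deposited series matrix held log2 ratios of Cy5 over Cy3, as set against the scanner's ratios (r from 0.978 to 0.992), with centring not given in the sources. Analysis used limma 3.58.1 in R 4.3.3: normexp (offset 50), loess with controls at weight 0, marked spots left out, spots of a probe averaged, ratios oriented as organoid over crypt from the labelled dyes, arrays of a mouse averaged, and lmFit and eBayes of the 2 mouse means (two-sided, 1 residual and 4.16 prior degrees of freedom). The fit was tested on simulated data. The number of probes tested was 21923. Each kept at least 1 unmarked spot on every array and exceeded background in each of 4 channels of at least 1 tissue. Accessions named 24844 of 41174 probes through RefSeq's GRCm38.p6 table, and the file's gene name named the others. A gene was represented by its brightest tested probe. Channel signals were computed after loess and Aquantile.

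The members and lists were chosen with earlier results of these data known. Named were all 10 members, genes of the lists past the test with the highest or lowest ratios, 3 genes nearest to Fos and 3 to Egr1, and markers of other cells. Relatives of members, the upstream genes and genes short of the filter were named outside this rule, after their values were seen. Some genes that the rule names are not reported here. Over all genes the arrays of a mouse correlated with r = 0.837 and 0.850, and the means of the mice with r = 0.767. The arrays carried 161 to 197 marked spots each, and their number limits the precision. No batches of culture, RNA preparation or labelling were known, and none was tested. Pairing comes from the design: each ratio is taken within a mouse.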

Additional observations from a re-analysis of the deposited data

Results flagged for a closer look

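The ratio of Egr1 followed the dye: both arrays with the organoid in Cy5 were above 0 (mean 0.41) and both with the organoid in Cy3 below it (mean -0.15), a difference of 0.56 on the log2 scale that was not tested. No other probe of the 10 genes showed opposite signs by dye, and for none of the 13 probes did 1 of the 4 array ratios stand apart from the others by Dixon's criterion.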

How the results depend on the processing

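Over 11 other ways of processing with a test, 9 of the 10 genes kept their direction in each, and Egr1 turned to -0.15 with the organoid in Cy3 alone. Not all of these could have changed a direction. With no dim-probe filter, all 8 channels required or a 4-array fit, the ratios of the 10 genes are those already reported. The same 9 genes had 1 direction on all 4 arrays, so neither dye alone could turn them. Fos passed in 9 of the 11 (log2 ratio -3.03 to -2.33), Nr4a1 in 10 (1.60 to 2.13), Ier3 in 8 (0.73 to 1.17), Zfp36 in 7 (-1.10 to -0.68) and Jun in 6 (0.54 to 0.91). Junb passed in 3, Ier2 and Atf3 in 2 each, and Fosb and Egr1 in 0. With median centring 1 of the 10 genes rose and 0 fell, against 130 genes higher and 94 lower over the array, and the median of all genes moved to 0.17. With no dim-probe filter 0 rose and 0 fell (293 and 384 over the array). With the organoid in Cy3 alone 1 rose and 1 fell (432 and 476). The 4-array fits take repeats of the same RNA for replicates: with a dye effect and no replicate block 4 rose and 4 fell (1952 and 1757), and with the mouse as a random replicate block 4 rose and 3 fell (1590 and 1490). With no dim-probe filter the ratios of the 10 genes stayed the same. Only the set of genes that enters limma's pooled spread and the adjustment changed, and the part of each was not tested. The cause of the other changes was not tested. A median-centred array keeps any trend of the dyes with brightness, and the part of such a trend was not tested either. With 1 mouse left there is no test; in mouse 1 and mouse 2 alone, Fos was at -1.95 and -3.13, Nr4a1 at 1.19 and 2.30 and Zfp36 at -0.69 and -1.23, all 5 called genes kept their direction, and Egr1 was at -0.01 in mouse 1 and 0.28 in mouse 2. The number of mice limits what can be called.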

Other observations

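Of 8 heat shock genes, none passed limma's test or had an unadjusted p under 0.05, and 0 were called by any of the other fits. The mice differed widely in some of them. Hspa1a, an inducible chaperone gene, was at 1.20 in mouse 1 and -2.68 in mouse 2 on the log2 scale of organoid over crypt, and its near-identical copy Hspa1b at 0.38 and -1.51, so which copy each probe read is uncertain. The Hspa1a signal in crypts was 8.22 in mouse 1 and 11.15 in mouse 2 on the log2 scale, and in organoids 9.42 and 8.47. Hsph1 was at -0.08 and -1.79 and its crypt signal at 13.02 and 14.25. These are values of 1 animal against 1.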
